A study of Drosophila melanogaster with 9 samples.

Results

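The genes described here are 10 genes of larval hemocytes, the blood cells of the fruit fly Drosophila melanogaster, and of melanization: Hml, NimC1, eater, crq, Sr-CI, Pxn, PPO1, PPO2, lz and srp. They were taken by name from a table of 17759 genes, by a list drawn up with earlier results of these data known, and all 10 were among the 12883 genes that passed a filter on low counts. RNA had been sequenced from 9 pools of 10 whole larvae of the last instar at the wandering stage, when larvae leave the food before forming a puparium. The larvae grew on a diet of sugar and yeast at a low density (5 eggs per ml), a medium density (60 eggs per ml) or a high density (300 eggs per ml), with 3 pools each. These densities are those of the series design, while the treatment protocol says that first-instar larvae were counted. The strain, the sex and the age in hours of the larvae are not given in the sources used here, and neither is whether the pools of a density came from separate cultures, so p-values measure the spread between these pools. Because RNA came from whole larvae, fewer blood cells of a type and less RNA of a gene per cell cannot be told apart.

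Most larval hemocytes are plasmatocytes, macrophage-like cells that engulf microbes and dying cells and secrete extracellular matrix. A small class, the crystal cells, stores prophenoloxidases, which are released at wounds, are cut by a serine protease cascade and oxidise phenols to melanin. The lamellocytes, a further class, are rare in healthy larvae and encapsulate large intruders such as wasp eggs. Blood cells arise under the GATA factor serpent, and the Runx factor lozenge directs part of them to the crystal cell fate. The question put to the data was whether transcripts of these cells differ with larval crowding.

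The libraries held between 16822606 and 25141308 counts, and the 10 genes together took between 0.0396% and 0.0757% of them. Levels are given as CPM, that is, counts scaled to library size, with TMM factors that adjust for differences in library composition. A gene with 3 counts, taken as the floor, would stand between 0.106 and 0.156 CPM, and every member was above it in every library. Sums over marker genes of other tissues were well above 0 in all 9 libraries, as whole larvae would give: 7 fat body markers summed to between 41475 and 94973 CPM, 7 salivary gland markers to between 24800 and 53497 CPM, and 7 body wall muscle markers to between 2958 and 11463 CPM. The libraries also differed in transcripts of males. The 2 dosage compensation RNAs roX1 and roX2 summed to 345 to 792 CPM in low, 137 to 423 CPM in medium and 361 to 611 CPM in high density libraries. By the test given below, 5 of 5 testis markers rose in high against medium, where 39.6% of all genes passed. Neither roX RNA passed in any comparison, and the testis markers passed in no comparison with low.

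Per kilobase of summed exon length, crq was the most abundant of the 10 transcripts at low density, at 61.1 ± 4.63 CPM per kb (SD, n = 3). It was followed by eater at 19.8 ± 1.998, Pxn at 14.8 ± 0.734, srp at 13.2 ± 0.779, PPO1 at 11.9 ± 1.42 and PPO2 at 10.1 ± 0.890 CPM per kb. The lower end was held by NimC1 at 6.39 ± 0.290, Sr-CI at 4.78 ± 0.673, Hml at 3.80 ± 0.376 and lz at 0.705 ± 0.207 CPM per kb. In this order srp and PPO1, PPO1 and PPO2, and Sr-CI and Hml had overlapping ranges of mean ± SD, and the other neighbours did not. At medium density the order was the same, with crq at 61.0 ± 2.97 and eater at 35.3 ± 8.57 CPM per kb at its head, and the ranges of neighbours overlapped from srp down to Hml. At high density crq stood at 33.9 ± 4.03 and eater at 20.4 ± 9.72 CPM per kb, and the spread was so wide that among neighbours only NimC1, at 4.64 ± 1.28, and lz, at 0.933 ± 0.310 CPM per kb, had ranges of mean ± SD that did not overlap. The marker He, a surface glycoprotein of most hemocytes, was present in all 9 libraries at between 21.5 and 74.0 CPM.

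In high against low, 2 of the 10 genes passed the test, both by falling. These were crq, an engulfment receptor, and srp, the GATA factor of blood and fat body. Among all genes tested 15.2% passed the same threshold, an adjusted p under 0.05 in edgeR's quasi-likelihood test. In medium against low no member passed in edgeR, and nor did any other gene (0.00%). There 3223 genes had an unadjusted edgeR p under 0.05, and DESeq2 called 1613 of 16210 genes taken without the low-count filter. In high against medium 4 members passed, where 39.6% of all genes did, and all of them, crq, srp, NimC1 and Pxn, fell. A joint test of any difference among the 3 densities passed for crq, NimC1 and srp, against 33.6% of all genes. Each pair of these comparisons shares the 3 libraries of a density, so their results are not independent of one another.

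**Figure D1:**
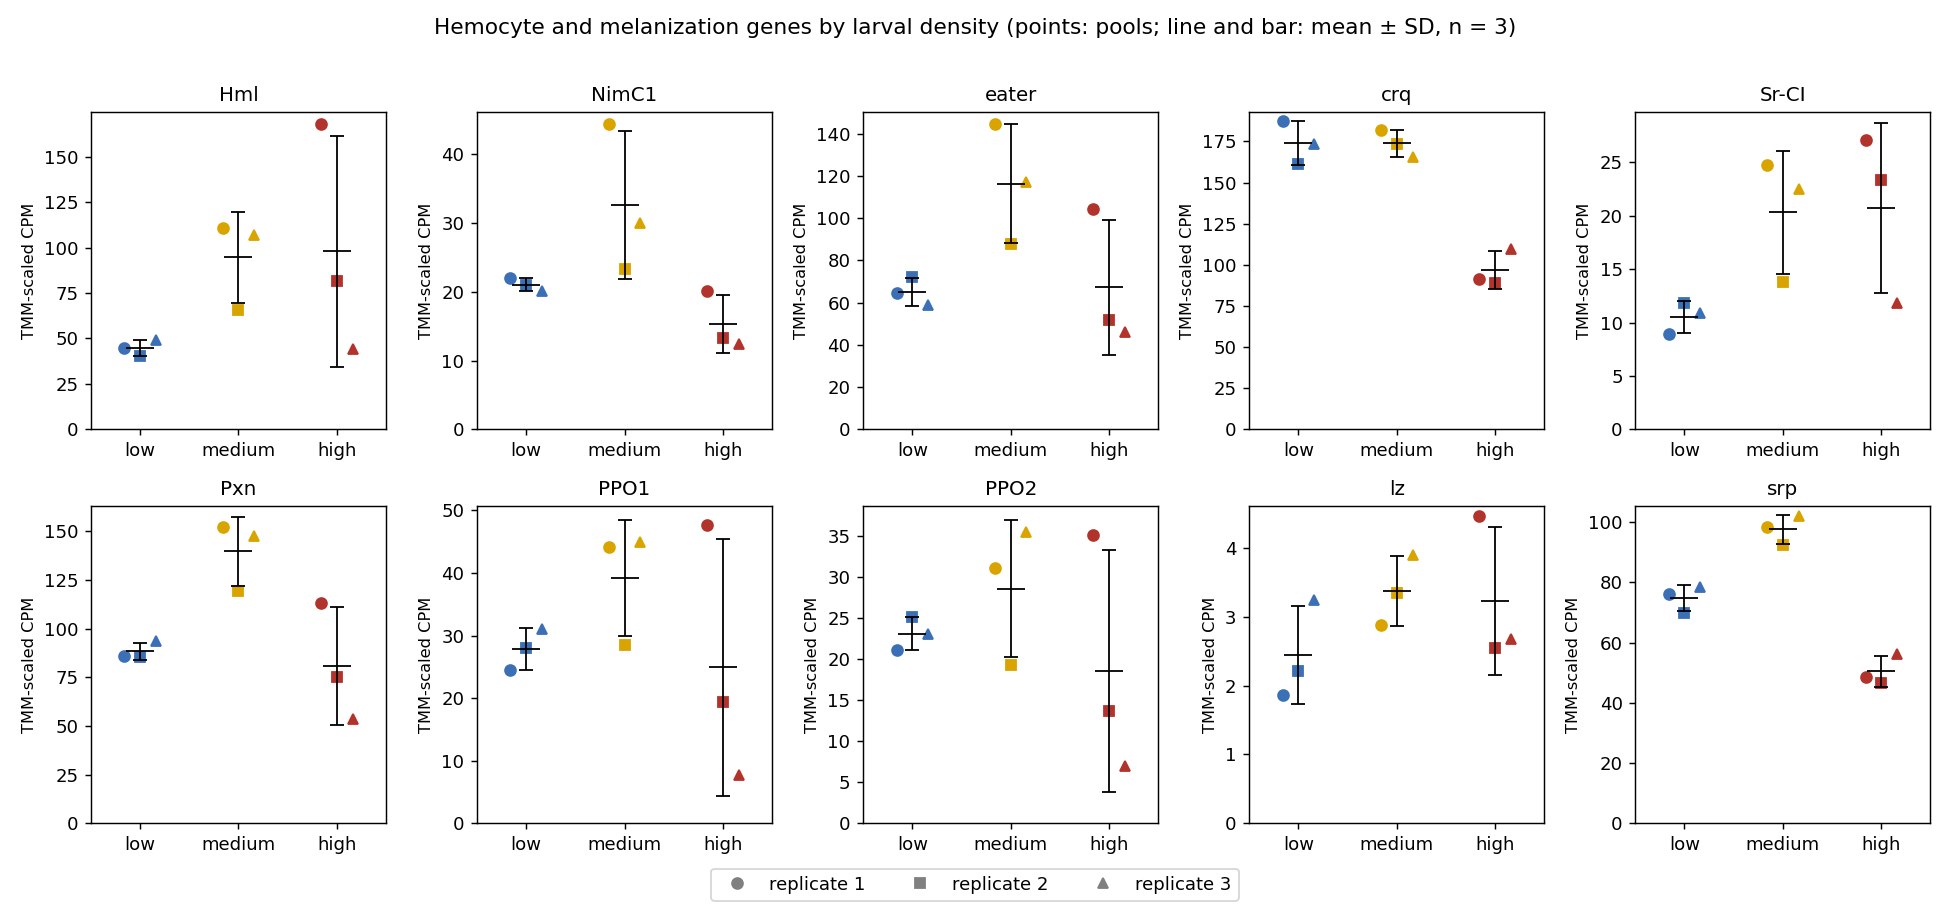
TMM-scaled CPM (vertical axes, each from 0) of the 10 genes in the 3 low, 3 medium and 3 high density libraries, with symbols for replicate numbers and a line and bar for the mean and SD. The high density libraries of crq (88.7 to 110 CPM) and srp (46.6 to 56.3 CPM) lie below all others, while those of PPO1 spread from 7.74 to 47.6 CPM.

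The values by sample fell into 2 patterns. The transcription factor srp and the receptor crq had close replicates and a lower level in every high density library. Most of the other genes had close replicates at low density, higher levels in at least part of the medium libraries, and a wide spread at high density.

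Serpent, encoded by srp (chromosome 3R, 15986152 to 16004081, plus strand, Release 6 coordinates of the deposited table), is required for blood cells and the fat body to form and remains expressed in both. Its level was 76.1, 70.0 and 78.5 CPM at low, 98.4, 92.5 and 102 CPM at medium and 48.7, 46.6 and 56.3 CPM at high density. The 3 groups did not overlap, with medium highest and high lowest. Against low density, high density srp fell by 0.57 (log2, SE 0.09), a fold of 0.675, with an edgeR adjusted p of 0.0055. Against medium density it fell by 0.95 (SE 0.09, edgeR adjusted p 0.0012), a fold of 0.518. The medium libraries were all above the low ones, with a log2 fold change of 0.38 (SE 0.09) and an unadjusted p of 0.00189, but the adjusted p was 0.13. That difference was called without medium replicate 2 (adjusted p 0.0482) and by DESeq2 (0.00691). Both falls kept their call in 19 of 19 alternative fits, among them the fit with roX as a covariate. Part of its exons overlap those of lncRNA:CR44133 on the same strand, so read pairs there could not be assigned to either gene alone.

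Lozenge, encoded by lz (X, 9284649 to 9303636, plus strand), marks the crystal cell lineage and is also used in the eye disc. It was the rarest of the 10 transcripts, at 1.87, 2.22 and 3.25 CPM at low, 2.88, 3.35 and 3.89 CPM at medium and 4.47, 2.55 and 2.68 CPM at high density. The groups overlapped, and the highest library was high replicate 1. The log2 fold change of lz was 0.41 (SE 0.30, edgeR adjusted p 0.389) in high against low and 0.47 (SE 0.30, adjusted p 0.358) in medium against low.

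Croquemort, the product of crq (2L, 448254 to 453024, minus strand), is a receptor of the CD36 family by which plasmatocytes take up dying cells. It was measured at 188, 161 and 173 CPM at low, 182, 174 and 165 CPM at medium and 91.4, 88.7 and 110 CPM at high density. Low and medium libraries were interleaved, and the high libraries were all far below both. From low to high density crq fell by 0.85 (log2 scale, SE 0.10, edgeR adjusted p 0.00255), a fold of 0.555. From medium to high it also fell by 0.85 (SE 0.10, edgeR adjusted p 0.00206), while medium and low had nearly equal means of 174 ± 8.45 and 174 ± 13.2 CPM. The 2 falls kept their call in 19 of 19 alternative fits each.

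NimC1, a Nimrod receptor of plasmatocytes that takes part in the uptake of bacteria, lies on 2L from 13973158 to 13976769, on the minus strand, close to NimC2. Its levels were 22.0, 20.9 and 20.1 CPM at low, 44.5, 23.4 and 30.0 CPM at medium and 20.1, 13.3 and 12.4 CPM at high density. Medium replicate 1 stood highest, and every high library was below every medium library. From medium to high density NimC1 fell by 1.09 (SE 0.25, edgeR adjusted p 0.0129), a fold of 0.469. Against low density its log2 fold change was -0.46 (SE 0.25, adjusted p 0.264). Of 19 alternative fits of the fall against medium 18 kept the call, and the fit with roX as a covariate gave a log2 fold change of -0.79 and an adjusted p of 0.11.

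Eater (3R, 27095867 to 27099679, minus strand) is an EGF-repeat receptor of plasmatocytes that binds bacteria and is needed for hemocytes to settle under the cuticle. It was found at 64.6, 72.1 and 59.0 CPM at low, 144, 87.9 and 117 CPM at medium and 104, 51.7 and 46.0 CPM at high density. The medium libraries were all above the low ones, and high replicate 1 reached into the medium range while the other high libraries lay below the low range. Its log2 fold change was 0.04 (SE 0.31, edgeR adjusted p 0.934) in high against low, 0.84 (SE 0.31, adjusted p 0.149) in medium against low and -0.79 (SE 0.31, adjusted p 0.0709) in high against medium. The difference from medium was called with all 9 libraries by DESeq2 (-0.78, adjusted p 0.0364) and limma voom (-0.86, adjusted p 0.0488). Without high replicate 1 edgeR gave -1.26 (adjusted p 0.00401). Its counts were not whole in 7 libraries, since some of its read pairs mapped to several places and were divided among them.

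Sr-CI (2L, 4121702 to 4124153, plus strand) encodes a scavenger receptor of plasmatocytes that binds bacterial surfaces. It stood at 8.91, 11.8 and 10.9 CPM at low, 24.7, 13.8 and 22.5 CPM at medium and 27.1, 23.3 and 11.8 CPM at high density. All 6 libraries of medium and high density were above those of low density, though high replicate 3 exceeded low replicate 2 only narrowly. The log2 fold change of Sr-CI was 0.98 (SE 0.32, edgeR adjusted p 0.0776) in high against low and 0.95 (SE 0.32, adjusted p 0.135) in medium against low. Without high replicate 3 it was called as higher in high than in low, at 1.26 (adjusted p 0.00665). DESeq2 called Sr-CI too, at 0.997 (adjusted p 0.0191).

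Hemolectin, the product of Hml (3L, 13846054 to 13860001, plus strand), is a large secreted protein of plasmatocytes that works in clot formation, and its promoter is widely used to mark these cells. Hml was measured at 44.8, 40.1 and 48.9 CPM at low, 111, 65.7 and 107 CPM at medium and 168, 81.7 and 44.2 CPM at high density. The medium libraries were all above the low ones, and the high libraries ran from the low range to the highest value of the 9. The log2 fold change of Hml was 1.13 (SE 0.42, edgeR adjusted p 0.112) in high against low and 1.08 (SE 0.42, adjusted p 0.164) in medium against low. Leaving out high replicate 3 gave 1.49 (adjusted p 0.0106) against low, and leaving out high replicate 1 gave 0.49 (adjusted p 0.265).

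Peroxidasin, encoded by Pxn (3L, 2601455 to 2630064, minus strand), is a secreted peroxidase of hemocytes that crosslinks collagen IV in basement membranes. Its values were 86.1, 85.6 and 93.4 CPM at low, 152, 119 and 147 CPM at medium and 113, 75.4 and 53.5 CPM at high density. Medium was above low and above high without overlap, and the high libraries lay on both sides of the low ones. Against medium density Pxn fell by 0.79 (SE 0.24, edgeR adjusted p 0.0284), a fold of 0.578. That call held in 12 of 19 alternative fits, and it was lost without medium replicate 1 (adjusted p 0.0858), without medium replicate 3 (0.0759) and without high replicate 2 (0.0907). With roX as a covariate the log2 fold change of Pxn against medium was -0.47 (adjusted p 0.212). Part of its exons overlap those of lncRNA:CR45660 on the same strand.

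PPO1 (2R, 17887220 to 17889973, minus strand) and PPO2 (2R, 9042261 to 9044709, minus strand) encode the prophenoloxidases of crystal cells, PPO1 the form in solution that is used first and PPO2 the form held in crystals. PPO1 stood at 24.5, 28.0 and 31.1 CPM at low, 44.2, 28.5 and 44.9 CPM at medium and 47.6, 19.3 and 7.74 CPM at high density. PPO2 stood at 21.1, 25.2 and 23.0 CPM at low, 31.0, 19.3 and 35.5 CPM at medium and 35.1, 13.7 and 6.92 CPM at high density. For both genes high replicate 3 was the lowest of all 9 libraries. High replicate 1 was the highest for PPO1 and second to medium replicate 3 for PPO2, so the groups overlapped. The highest and the lowest high library differed 6.16-fold for PPO1 and 5.07-fold for PPO2, against 1.27-fold and 1.19-fold among low libraries. The log2 fold change from low to high was -0.16 (SE 0.53, edgeR adjusted p 0.854) for PPO1. For PPO2 it was -0.32 (SE 0.50, adjusted p 0.689). In high against medium both were called, as lower, only without high replicate 1, by 1.55 (adjusted p 0.0145) for PPO1 and by 1.49 (adjusted p 0.0113) for PPO2. As single libraries were left out, that log2 fold change ranged from -1.55 to -0.21 for PPO1 and from -1.49 to -0.21 for PPO2.

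**Figure D2:**
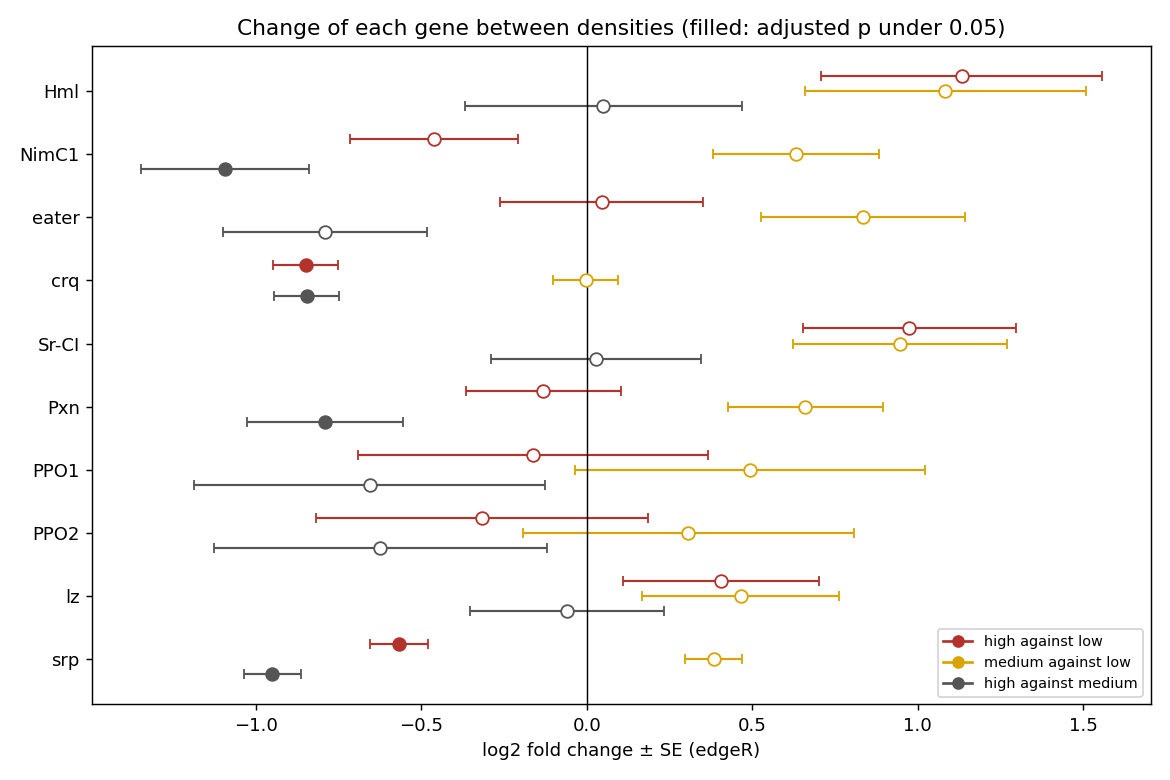
Log2 fold change of each gene (horizontal axis, edgeR, bars 1 SE) in high against low (red), medium against low (yellow) and high against medium (grey), filled where the adjusted p was under 0.05. Filled points are all to the left of 0: crq and srp in both comparisons with high, and NimC1 (-1.09) and Pxn (-0.79) in high against medium.

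In medium against low 6 members, Sr-CI, NimC1, Pxn, Hml, srp and eater, had all 3 medium libraries above all 3 low ones. The same held for 18.2% of all genes, and 6 members had an unadjusted p under 0.05, against 25.0% of all genes. The median log2 fold change of the 10 members was 0.56 there, beside 0.02 over all genes tested. It was -0.15 in high against low, beside 0.06, and -0.72 in high against medium, beside 0.01.

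The order of the replicate libraries was shared by most members. In the high group replicate 1 was highest and replicate 3 lowest for 7 of the 10 genes, an order that 24.7% of all genes showed. The exceptions were crq and srp, which were highest in replicate 3, and lz. In the medium group replicate 2 was the lowest library for 8 of the 10 genes, in the order 1, 3, 2 for 5 of them and 3, 1, 2 for 3, orders that 18.3% and 15.5% of all genes showed. In high replicates 1, 2 and 3 the fat body sum was 65445, 43832 and 41475 CPM and the body wall muscle sum 11463, 8350 and 4269 CPM, the same order. The salivary gland sum, at 41437, 31727 and 24800 CPM, and the sum of 6 gut markers, at 1682, 1467 and 1117 CPM, shared that order. The testis sum had the opposite order, with 146, 266 and 311 CPM. In medium replicate 2 the fat body sum was 60976 CPM, below the 94973 and 82057 CPM of replicates 1 and 3, while the roX sum of 423 CPM was above their 205 and 137 CPM and the testis sum of 118 CPM above their 84.4 and 57.9 CPM. The part of fat body, muscle, salivary gland, gut and testis in the members' values was not tested.

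Ratios of counts between members within a library do not depend on library scaling, and 12 were computed, none with a test. PPO1 to PPO2 stayed between 1.11 and 1.48 in all 9 libraries while each gene varied more than 5-fold. PPO1 to Hml was 0.546, 0.698 and 0.636 in the low libraries, 0.399, 0.434 and 0.419 in the medium ones and 0.284, 0.236 and 0.175 in the high ones. The groups were fully separated in that ratio, with high lowest and low highest. Of the 12 ratios only PPO1 to Hml and PPO2 to Hml separated all the groups. How often ratios of pairs beyond these 12 do so was not computed. PPO2 to Hml separated in the same order, with means of 0.523 ± 0.0908 at low, 0.302 ± 0.0266 at medium and 0.178 ± 0.0278 at high density (SD, n = 3). Both ratios are taken to Hml, and PPO1 and PPO2 varied together, so they are not independent results. PPO1 to NimC1 did not separate the groups, with means of 1.33 ± 0.217 at low, 1.24 ± 0.251 at medium and 1.48 ± 0.873 at high density and a range from 0.622 to 2.37 within high. Among genes of plasmatocytes, Hml to NimC1 was 2.04, 1.91 and 2.43 in the low libraries, 2.49, 2.81 and 3.57 in the medium ones and 8.33, 6.16 and 3.55 in the high ones. Here low lay below the other groups, and high replicate 3 was just under medium replicate 3. Sr-CI to NimC1 was 0.503 ± 0.0862 at low, 0.631 ± 0.103 at medium and 1.35 ± 0.403 at high density, with all 3 high libraries above the rest. PPO1 to lz, both of crystal cells, ranged from 2.88 in high replicate 3 to 15.3 in medium replicate 1.

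**Figure D3:**
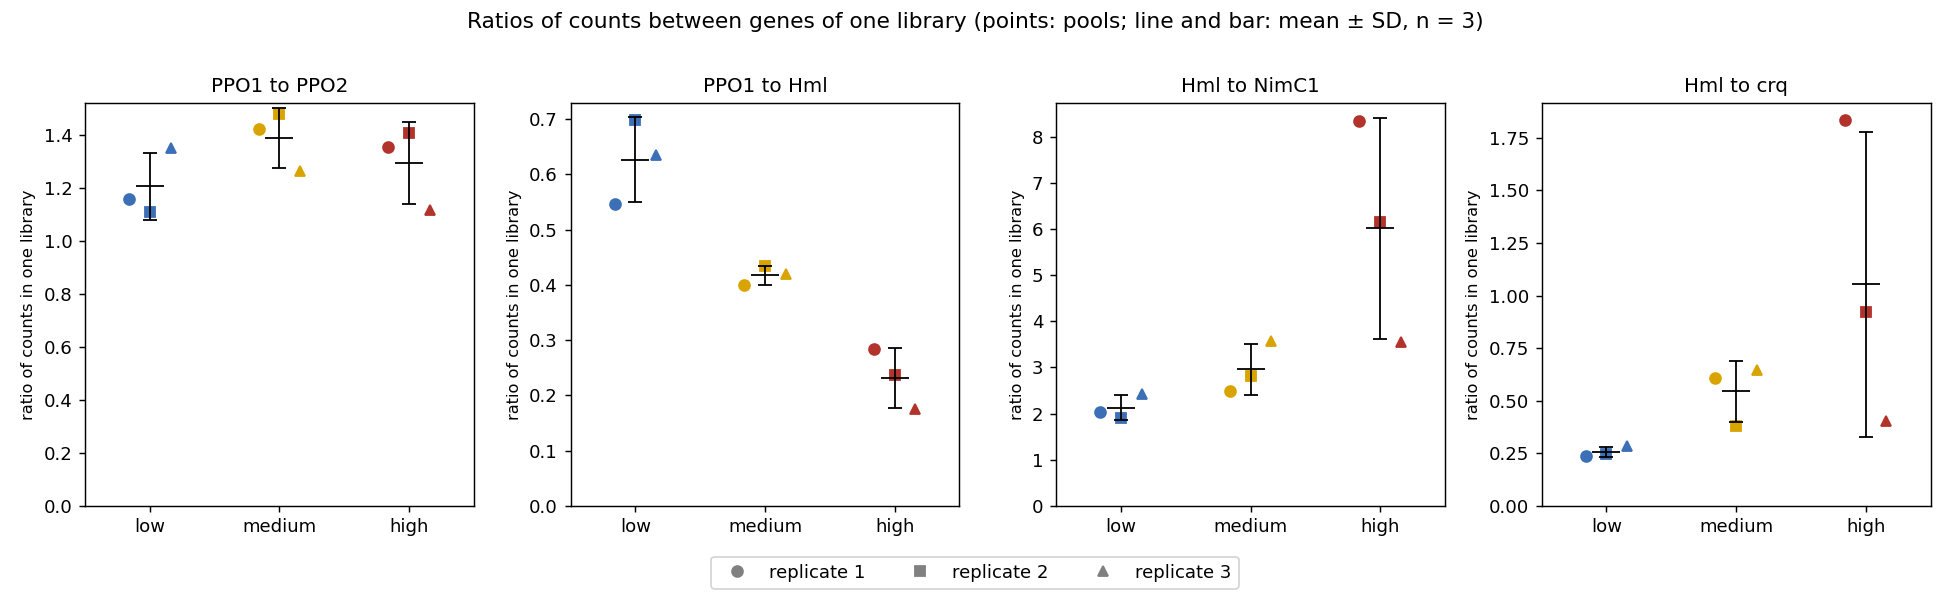
Ratios of counts between pairs of the 10 genes in each library, by density, with symbols for replicate numbers. PPO1 to PPO2 stays between 1.11 and 1.48 throughout, whereas PPO1 to Hml steps down from 0.546 to 0.698 at low to 0.175 to 0.284 at high density.

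Likeness to other genes was measured as the root mean square difference of centred log2 CPM over the 9 libraries, as a description with no test. The gene most like PPO1 among 12882 others was PPO2, and the reverse, with a difference of 0.149. Pxn was the second nearest gene to eater (0.183), after Hf and before CG14990, and the genes nearest to Pxn itself were CG14990 (0.112), CG10311 and Hf. Hml and Sr-CI had the same nearest gene, PH4alphaMP, at 0.205 and 0.155. The next nearest were Spat and Peritrophin-A for Hml and GNBP2 and Pxd for Sr-CI. NimC1 was nearest to CG17224 (0.112), nAChRbeta3 and DNaseII, and its nearest fellow member was Pxn at rank 39. For crq the nearest genes were CG8602 (0.0518), AdSL and GC1, and for srp they were CG9577 (0.0701), Strica and zfh1. PPO1 was followed by Cyp28a5 and CG6415, and PPO2 by CG6415 and Cyp12d1-p. The nearest genes to lz were IP3K2 (0.130), pre-rRNA:CR45845 and lrRNA, and its nearest fellow member, Pxn, ranked only 5518.

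Beyond the 10 genes, 22 other genes of plasmatocytes and phagocytosis were tested, and NimC4, at 0 in part of the libraries, was not. From low to high density 8 fell and 1 rose, where 15.2% of all genes passed, with a list median of -0.13 beside 0.06 for all genes. NimC2, a Nimrod receptor like NimC1, fell by 1.16 (SE 0.11, edgeR adjusted p 0.00144), from 574 ± 54.3 to 257 ± 28.3 CPM (SD, n = 3). NimC3, of the same family, fell by 1.10 (adjusted p 0.0157), and the thioester proteins Tep1 and Tep2, secreted relatives of complement factors, fell by 1.12 (adjusted p 0.0236) and 0.73 (adjusted p 0.00626). The 1 rise was Tep3, at 0.54 (adjusted p 0.0477), named after its value was seen. Tep3 was not called with roX as a covariate, nor without high replicate 1, high replicate 2 or any 1 of the low libraries. Against medium 8 again fell and 1 rose among the 22, where 39.6% of all genes passed, so that this count was near the background. The falls include Tep1 by 1.27 (adjusted p 0.0095) and NimC2 by 1.14 (adjusted p 0.0012). The rise there was Sr-CII, also named after its value was seen, at 0.802 ± 0.440 CPM in high and 0.185 ± 0.132 CPM in medium. Sr-CII was not called with roX as a covariate or without high replicate 1. The list's 9 calls in high against low became 5 without low replicate 1, and 4 when low replicate 2, low replicate 3 or high replicate 2 was left out. The 9 in high against medium became 5 with roX as a covariate.

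Of 7 genes of the extracellular matrix that hemocytes and fat body make, 3 fell in high against low and 4 in high against medium. Over all genes tested, 15.2% and 39.6% passed in these comparisons. The laminin chains LanA, LanB1 and LanB2 fell in both, LanA by 0.69 (SE 0.09, edgeR adjusted p 0.00364) against low, from 533 ± 9.57 to 330 ± 37.7 CPM. Papilin, Ppn, fell by 0.35 (adjusted p 0.0472) against medium, a call lost in 14 of 19 alternative fits, among them those without any 1 library other than high replicate 1. The collagen IV chains had another pattern, with Col4a1 at 104, 105 and 103 CPM at low, 208, 153 and 179 CPM at medium and 206, 125 and 104 CPM at high density. Like Hml and Pxn they were higher in every medium library than in any low one, and high replicate 1 was the highest of its group. Without high replicate 3, vkg and Col4a1 were called as well in high against low, as higher, which made 5 genes in all. In that fit 2755 of 12984 genes tested passed. Without high replicate 1 all 7 were called in high against medium, each as lower, where 5447 of 13077 genes tested passed.

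Of 8 tested genes of the crystal cell lineage 1 fell, peb, which encodes the zinc finger factor Hindsight, by 0.35 in high against low (adjusted p 0.0389) and by 0.36 in high against medium (adjusted p 0.0171). Over all genes tested, 15.2% passed against low and 39.6% against medium, larger shares than in this list. The first call was lost in 13 of 19 alternative fits, among them those without any 1 of the low or medium libraries, high replicate 1 or high replicate 2. The second was lost in 4 of 19, with library totals alone, only the 2 groups compared, roX as a covariate or medium replicate 1 left out, and klu was added to it without high replicate 1. Among 7 lamellocyte genes the beta integrin gene mys fell by 0.35 (adjusted p 0.0149) against low. That call was lost in 3 of 19 alternative fits, with library totals alone, only the 2 groups compared or low replicate 3 left out. Without high replicate 3, 3 lamellocyte genes were called against low, 1 of them as higher, where 2755 of 12984 genes tested passed. Against medium mys and the kinase gene msn fell. The call of msn was lost in 5 of 19 alternative fits. These were library totals alone, only the 2 groups compared, roX as a covariate (adjusted p 0.107), and leaving out medium replicate 3 or high replicate 2. With all libraries in the main fit, the share of lamellocyte genes called was below that of all genes in both comparisons. The defining lamellocyte markers atilla, with 22.1 ± 5.64 CPM in low and 33.0 ± 13.4 CPM in high, and PPO3, with 3.03 ± 1.53 and 1.66 ± 0.765 CPM, passed the test in no comparison.

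Among 16 tested genes of lymph gland and blood cell signalling, 2 rose and 1 fell in high against low, where 15.2% of all genes passed. The factor gene jumu rose by 0.49 (edgeR adjusted p 0.0197) and Socs36E, an inhibitor of JAK/STAT signalling, by 0.31 (adjusted p 0.0499). The zinc finger factor gene zfh1 fell by 0.47 (SE 0.08, adjusted p 0.00708), from 65.1 ± 3.21 to 47.0 ± 4.48 CPM, and its medium libraries were the highest, as with srp. Against medium 5 of 16 fell, zfh1 by 0.72 (adjusted p 0.00169), Pvf3, Pvf1, Stat92E and dome, a share below the 39.6% of all genes that passed there. Among 19 alternative fits each, the call of Socs36E was lost in 12, that of Stat92E in 11 and that of Pvf3 in 9. zfh1 was the 1 call left against low when low replicate 1, low replicate 3 or high replicate 2 was left out. Without high replicate 3, 5 genes were called against low, 2 of them as higher, where 2755 of 12984 genes tested passed. Against medium 2 or 3 were left without low replicate 1 or 2, any 1 of the medium libraries, high replicate 1 or high replicate 2, and 1 with roX as a covariate.

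Proteases and serpins act upstream of PPO1 and PPO2 and of the Toll receptor. In high against low 7 of 12 fell and none rose, with a median of -0.53 beside 0.06 for all genes. Of all genes 15.2% passed there, and 27.5% of those rose. In high against medium 9 of 12 fell, where 39.6% of all genes passed, with a median of -0.70 beside 0.01. Sp7, a protease that activates prophenoloxidase, fell by 1.43 (SE 0.19, edgeR adjusted p 0.00324), from 156, 133 and 135 CPM in the low libraries to 42.8, 43.9 and 70.4 CPM in the high ones. All 3 high libraries lay far below the low and medium ones. The Toll ligand gene spz fell by 1.39 (SE 0.11, adjusted p 0.00104), from 50.4 ± 6.92 to 19.2 ± 1.95 CPM. The protease gene psh fell by 0.88 (adjusted p 0.0252) against low and by 1.55 (adjusted p 0.00282) against medium. MP1, a melanization protease, fell by 0.89 (adjusted p 0.00385) against medium, and Spn28Dc, a serpin that restrains PPO1, fell by 0.70 (adjusted p 0.0219) against low. Hayan, which lies next to psh and acts in wound melanization, was not called, with means of 37.4 ± 2.96 CPM (low) and 42.8 ± 8.47 CPM (high). The 7 calls against low became 3 when low replicate 1, low replicate 3 or high replicate 2 was left out and 4 without low replicate 2, with Sp7, spz and grass among them each time. The 9 against medium became 5 with roX as a covariate, and MP1 was called in medium against low without medium replicate 2.

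**Figure D4:**
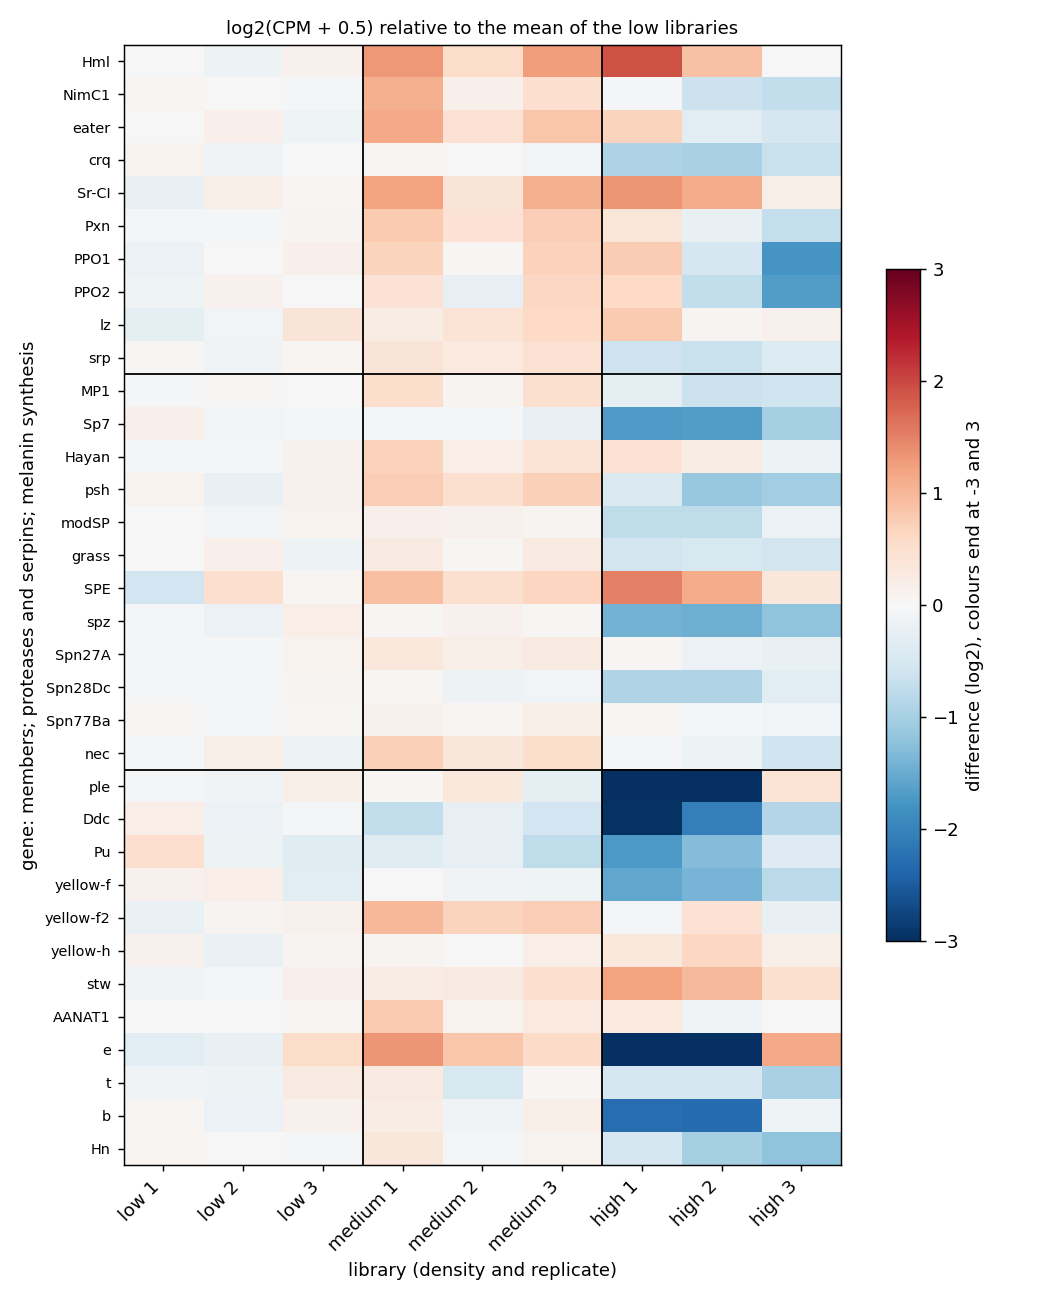
Log2(CPM + 0.5) of each gene in each library relative to the mean of the low libraries (colour, ending at -3 and 3), for the 10 genes, the 12 proteases and serpins and the 12 genes of melanin and catecholamine synthesis. Sp7 and spz are lower in all 3 high libraries, while ple, e and b are far lower in high replicates 1 and 2 but near or above the low level in high replicate 3.

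Genes of melanin and catecholamine synthesis, which serve the cuticle and neurons as well as blood cells, were split. Against low 3 of 12 fell and 1 rose, where 15.2% of all genes passed. Ddc, dopa decarboxylase, fell by 1.72 (SE 0.45, edgeR adjusted p 0.0367), yellow-f, a dopachrome conversion enzyme, by 1.24 (adjusted p 0.00663) and Hn, phenylalanine hydroxylase, by 0.87 (adjusted p 0.0137). The call of Ddc was lost in 9 of 19 alternative fits, among them those without any 1 of the low or medium libraries, and its log2 fold change ranged from -2.46 to -1.36 as single libraries were left out. The laccase gene stw rose by 0.93 (adjusted p 0.012), from 29.5 ± 2.92 to 56.0 ± 13.8 CPM. Against medium yellow-f, yellow-f2 and Hn fell and stw rose, where 39.6% of all genes passed. The call of yellow-f2 was lost in 8 of 18 and that of stw in 7 of 19 alternative fits. The tyrosine hydroxylase gene ple was measured at 1584, 1517 and 1840 CPM at low, 1707, 2051 and 1352 CPM at medium and 38.5, 40.2 and 2164 CPM at high density. The high group thus held the lowest libraries and the highest one of this gene. High replicate 3 also stood apart from the other high libraries for e, at 700 CPM against 2.45 and 3.28 CPM, and for b, at 116 CPM against 25.4 and 25.2. The 12 genes summed to 4148 to 4955 CPM in low and 3698 to 4838 CPM in medium libraries. In high replicates 1, 2 and 3 the sum was 764, 944 and 4506 CPM. Thus high replicates 1 and 2 lay below all other libraries, and high replicate 3 was within the range of low and medium. High replicate 3 was the library with the lowest PPO1 and PPO2. Without it 8 of the 12 genes were called in high against low and in high against medium, among them ple, e, b and Pu. In that fit 2755 of 12984 genes tested passed against low and 4825 against medium. Against low 1 call was left without low replicate 1 and 2 without low replicate 2 or high replicate 2. Against medium 2 were left without medium replicate 1 or high replicate 1.

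Of 6 clotting genes, Idgf3 fell in high against low, by 0.57 (adjusted p 0.0163), a call that was lost without low replicates 1, 2 or 3 or high replicate 2. Idgf3 and the lipophorin gene apolpp fell in high against medium, by 0.69 (adjusted p 0.006) and 1.19 (adjusted p 0.00675). Over all genes tested, 15.2% passed in high against low and 39.6% in high against medium. Without high replicate 1 apolpp, and without high replicate 3 Tig, was called beside Idgf3 in high against low. The clot protein gene fon stood at 333, 363 and 389 CPM at low, 693, 430 and 664 CPM at medium and 439, 348 and 152 CPM at high density. It was not called, and its order among the high and the medium libraries was that of Hml. In medium against low no gene of the 8 lists passed the test.

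**Figure D5:**
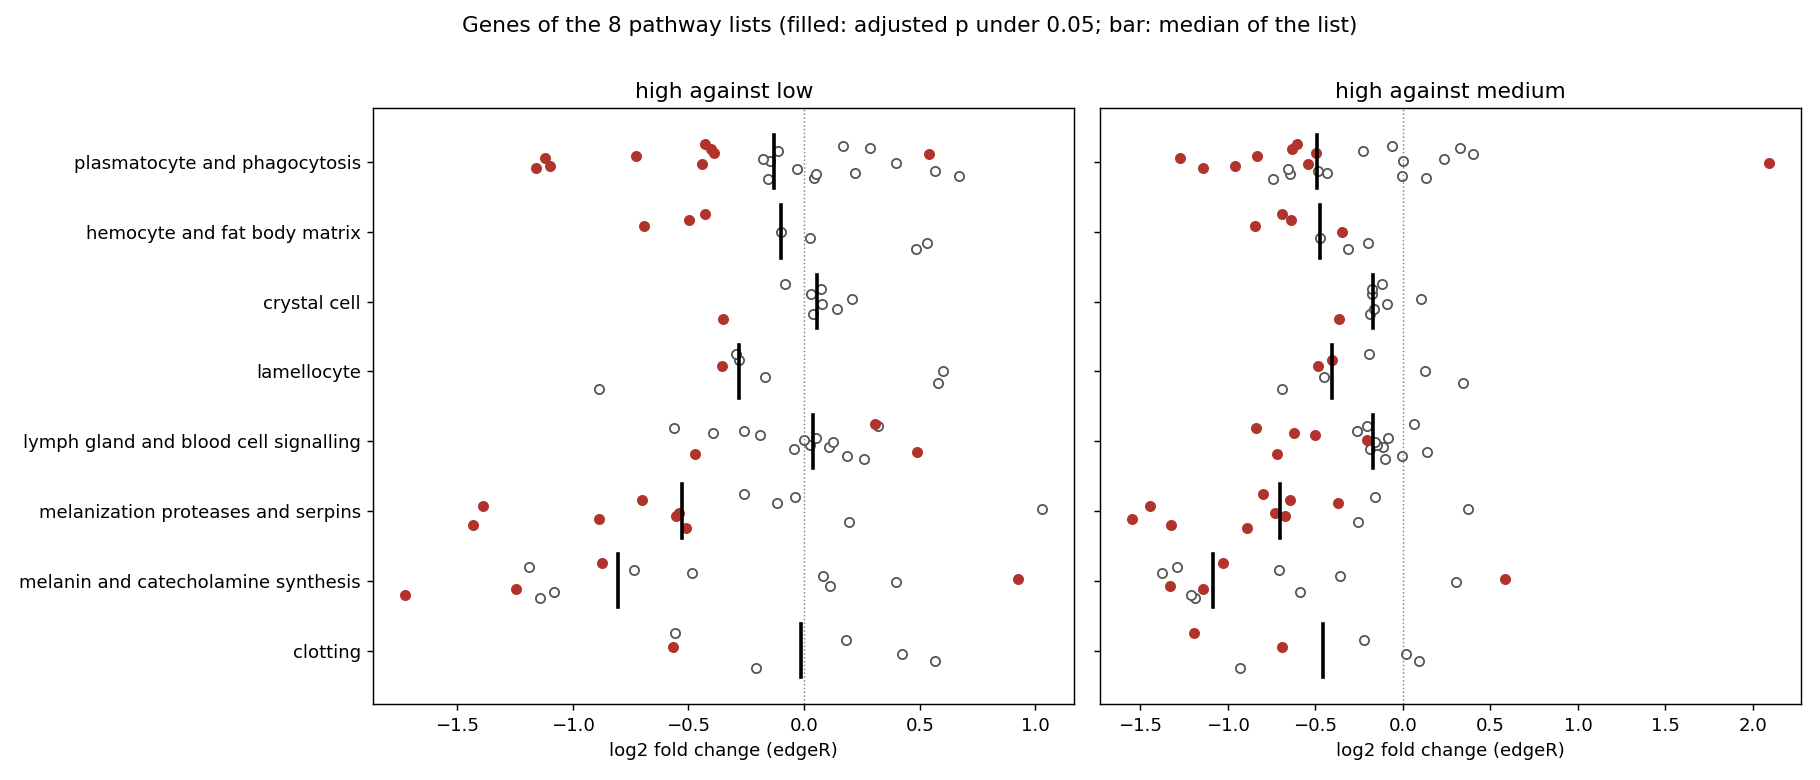
Log2 fold change (horizontal axis, edgeR) of the genes of the 8 lists in high against low and high against medium, filled where the adjusted p was under 0.05, with a bar at each list's median. The filled points lie mostly to the left of 0 in both panels, with 7 and 9 of 12 in the row of melanization proteases and serpins. Of all genes 15.2% and 39.6% passed in these comparisons.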

How the data were processed

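The 9 libraries were stranded poly(A) libraries from whole larvae, per the labels' protocols. The deposited table holds expected counts, which the authors made with featureCounts 1.6.2 from RefSeq exons of Release 6, on the reverse strand, with read pairs that map to several places divided among them, per the file headers. The submitters' processing notes also name Trim Galore 0.6.4, HISAT2 2.1.0 and SAMtools 1.9. Of the deposited values 5.06% were not whole, and none was normalized. Exon lengths and coordinates are those of the deposited table.

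After rounding, counts went into edgeR 4.0.16 (R 4.3.3): filterByExpr, TMM factors, 1 coefficient per density, a dispersion over all 9 libraries, the quasi-likelihood F-test and Benjamini-Hochberg adjustment over 12883 genes, with a threshold of 0.05. The script was tested on simulated data. Standard errors are the absolute log2 fold change over the root of F. Replicate libraries all differed by more than sampling noise. Same-numbered libraries did not deviate together from their group means (correlations from -0.339 to 0.279), so the numbers were not used as pairs.

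The members, the gene lists and the naming rule were chosen with earlier results of these data known. Of each list up to 4 called genes per comparison were named, those with the largest change whose higher group averaged 1 CPM or more, and for each member its 3 most similar genes. Alternatives were DESeq2 1.42.0, limma voom (limma 3.58.1), RLE, upper-quartile and library-total scaling, no filter, a filter of 10 counts in each library, only the 2 groups compared, a replicate block, roX as a covariate and leaving out each library. Those for the lists were chosen after seeing the data. A search of promoters for motifs was not run.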

Additional observations from a re-analysis of the deposited data

How the results depend on the processing

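The members called numbered 4 in high against low (Hml and Sr-CI added) and 2 in medium against low (Sr-CI and srp) with DESeq2, and 2 in high against medium with roX as a covariate. Of 16210 genes taken without the low-count filter, DESeq2 called 2865 in high against low and 1613 in medium against low. Over all genes, the roX covariate left 1131 in high against medium. Fits with only the 2 groups compared gave 978, 7 and 3095 in high against low, medium against low and high against medium. Leaving out each library gave 2 to 4, 0 to 1 and 3 to 7 members in these comparisons, and 807 to 2755, 0 to 1094 and 2675 to 5447 genes. It gave 2 to 8 members in the joint test. How many of all genes passed the joint test in the alternative fits was not counted, so its member counts there have no background. The replicate block gave 2, 0, 5 and 3 members (eater added in high against medium) and 1405, 0 and 4643 genes. The cause of these shifts was not tested.

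Of 570 alternative values for the members' fold changes 514 kept direction and side of the threshold, 8 lost and 14 gained a call, and 34 changed sign, all of them for uncalled differences. Signs changed for crq in medium against low with DESeq2 (0.0094), RLE (0.0087), 2 groups (0.015), the replicate block (6.3e-05) and roX (0.074). For eater in high against low they changed with voom (-0.050), the replicate block (-0.050) and roX (-0.052). In high against medium they changed for Hml with voom (-0.12) and the replicate block (-0.041), Sr-CI with voom (-0.044), lz with upper quartiles (0.039), totals (0.17) and roX (0.34), PPO1 with roX (0.0013) and PPO2 with roX (0.074). In high against low Pxn changed with totals (0.00051), and in medium against low PPO1 (-0.36) and PPO2 (-0.61) with roX. Leaving out single libraries gave, in high against low, -0.42 to 0.27 for eater, -0.46 to 0.10 for Pxn, -1.06 to 0.28 for PPO1 and -1.18 to 0.094 for PPO2. It gave -0.055 to 0.055 for crq in medium against low and, in high against medium, -0.59 to 0.41 for Hml, -0.22 to 0.32 for Sr-CI and -0.37 to 0.080 for lz. Of 873 alternative values for the 46 named changes of list genes, 739 kept their call, 134 lost it and 0 changed sign.

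Library totals alone raised the median of all genes from 0.06 to 0.21 in high against low and from 0.01 to 0.26 in high against medium, and the share of rises among called genes from 27.5% to 65.1% and from 53.9% to 84.0%. With 3 pools per density, the spread among the high density libraries limits the comparisons of PPO1, PPO2 and Hml more than counting error does.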
